A study of Mus musculus with 12 samples.

Results

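Macrophages take up worn red cells and free haem, break the haem down and return its iron to the circulation. The 10 genes described here encode the main steps of that route. They are the haem oxygenase Hmox1, the biliverdin reductases Blvra and Blvrb, the haem transporter Slc48a1, the iron exporter Slc40a1, the endosomal iron transporters Slc11a1 and Slc11a2, the ferritin subunits Fth1 and Ftl1, and the transferrin receptor Tfrc. They were chosen by name, with earlier results of these data known. All 10 were found among the 36439 gene identifiers of the count tables. RNA sequencing of 12 libraries gave their transcript counts in tumour-associated macrophages (TAMs) from C57BL/6 mice that carried Lewis lung carcinoma, a transplantable mouse lung tumour, under the skin.

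The libraries formed 4 groups of 3. F4/80+MRC1+ TAMs, sorted for a mouse macrophage marker and the mannose receptor, were compared with F4/80+CD11c+ TAMs, sorted for the same marker and an integrin shared with dendritic cells. F4/80+ TAMs overexpressing miR-511-3p, a microRNA encoded within Mrc1, were compared with F4/80+ TAMs overexpressing a mutated miR-511-3p. Titles of both overexpression groups carry the prefix SFFV, which thus does not differ between them. The sources used here do not give the age of the mice, the number of mice behind a library or the sequence of the mutated form. Nor do the labels say that the numbered libraries of a group came from separate mice, so the spread behind each p-value may be technical.

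In the haem route, engulfed haem leaves the phagolysosome through the protein of Slc48a1 and is opened by haem oxygenase to biliverdin, carbon monoxide and free iron. Biliverdin reductase turns biliverdin into bilirubin. The iron is stored in ferritin shells of heavy and light chains or leaves the cell through ferroportin, the protein of Slc40a1, and the transferrin receptor brings transferrin-bound iron in. When iron is scarce, iron regulatory proteins bind hairpins called iron-responsive elements. At the start of ferritin and ferroportin transcripts they block translation, and at the end of the Tfrc transcript they protect it from decay.

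Matches of the members to a pattern for these elements are printed here. Ferritin and ferroportin synthesis is set in part through such elements and is not visible in transcript counts. The search pattern was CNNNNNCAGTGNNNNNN, read on the transcript strand, with the 5 bases on either side of the loop able to pair. Sequences are 5′ to 3′ from GENCODE M21 transcripts on GRCm38, and capitals mark the loop.
Fth1 5′ UTR, chr19:9982733-9982759, + strand: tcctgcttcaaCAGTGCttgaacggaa
Ftl1 5′ UTR, chr7:45459780-45459806, - strand: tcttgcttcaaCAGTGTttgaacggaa
Slc40a1 5′ UTR, chr1:45925466-45925492, - strand: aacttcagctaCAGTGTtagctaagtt
Tfrc 3′ UTR, chr16:32631220-32631246, + strand: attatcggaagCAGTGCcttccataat
Tfrc 3′ UTR, chr16:32631599-32631625, + strand: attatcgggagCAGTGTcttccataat
Tfrc 3′ UTR, chr16:32631664-32631690, + strand: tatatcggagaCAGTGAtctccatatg
Tfrc 3′ UTR, chr16:32631711-32631737, + strand: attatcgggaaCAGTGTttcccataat

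The pattern occurred in the 5′ UTR of Fth1, Ftl1 and Slc40a1 and 4 times in the 3′ UTR of Tfrc. Among 21901 protein-coding genes, 0.1415% held it in a 5′ UTR and 0.589% in a 3′ UTR. The other 6 members held no match in either UTR, which says only that these letters were not found there. Elements with other letters or with a stem that pairs less fully would be missed, in Tfrc too.

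The microRNA overexpressed in the second comparison is printed with its seed, bases 2 to 8, in capitals, since the seed is the stretch that pairs with target transcripts. The sequence is that of RefSeq for GRCm38.p6, at chr2:14261051-14261072 on the + strand.
mmu-miR-511-3p: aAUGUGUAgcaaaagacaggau

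None of the 10 members (0 of 10) held a match of 7 or more bases to this seed (8mer, 7mer-m8 or 7mer-A1) in its longest annotated 3′ UTR, against 4085 of 20979 genes (19.47%). The members' 3′ UTRs ran from 94 bases in Blvra to 2653 bases in Slc11a2, and the share over all genes was not matched for length. A match is a description of letters and not a shown target site.

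Reads counted to genes were 15664146 to 17689064 per MRC1+ library, 10824918 to 17318957 per CD11c+ library, 23326219 to 27186233 per miR-511-3p library and 22906418 to 27890433 per mutated library. A member had between 267 and 62820 reads in a library. Levels are CPM, read counts scaled to the library total with edgeR's TMM factors over the 12 libraries, listed by replicate number. The sort markers followed the labels: Mrc1 averaged 3611 ± 265 CPM in MRC1+ and 1547 ± 184 CPM in CD11c+ TAMs, and Itgax, which encodes CD11c, averaged 97.3 ± 21.1 CPM in MRC1+ and 946 ± 53.5 CPM in CD11c+ TAMs (SD, n = 3 each). Mir511 had 2.97, 2.47 and 3.16 CPM in miR-511-3p TAMs and 0.112, 0.401 and 0.221 CPM in mutated miR-511-3p TAMs. These low values are reads over the Mir511 gene and not a measure of the mature microRNA. Since the mutated sequence is not given, they do not show how strongly the mutated form was expressed.

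**Figure D1:**
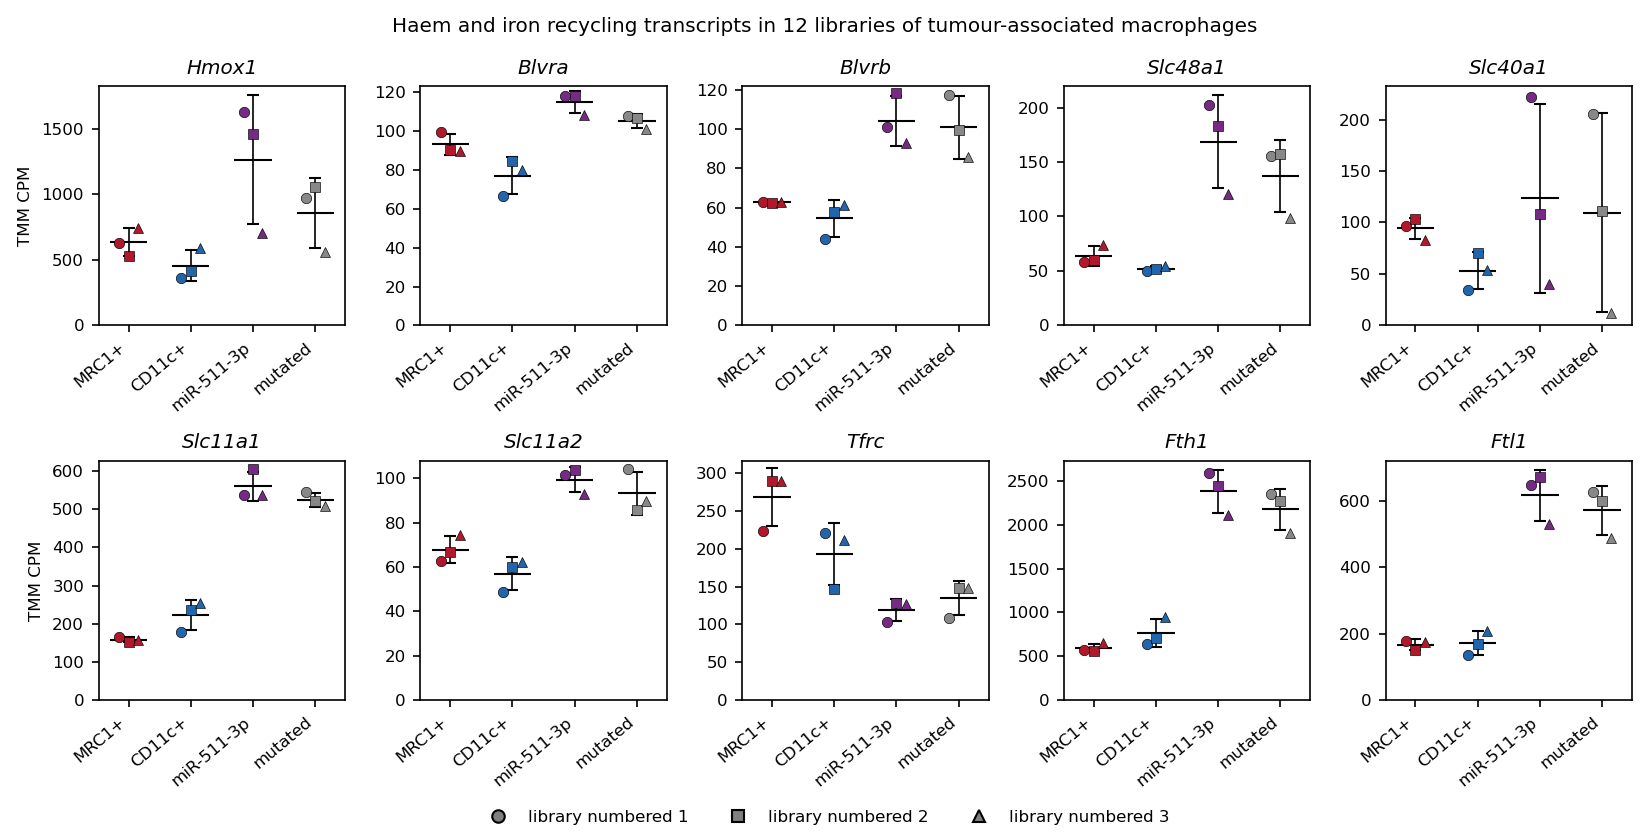
Level of each haem and iron recycling gene in each library, in TMM CPM on a linear axis, by group, with the group mean as a bar and the SD as an error bar. In both overexpression groups 9 of 10 members had higher means than in both sorted groups, Tfrc had lower means there, and Slc40a1 was spread most widely, between 11.8 and 206 CPM, in mutated miR-511-3p TAMs.

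The first comparison asked how MRC1+ differ from CD11c+ TAMs. Ferroportin transcripts (Slc40a1) were higher and those of Slc11a1, an iron and manganese transporter of the phagosome membrane, lower in MRC1+ TAMs, both by less than 2-fold. The other 8 members did not pass the test, among them Hmox1 and both ferritins. By the quasi-likelihood test of edgeR, with Benjamini-Hochberg adjustment over 15622 genes at 0.05, 1 member was higher and 1 lower, against 6.91% of all tested genes higher and 9.71% lower. That total of 2 of 10 lies near the 16.6% of genes called in either direction. When the same test blocked on the replicate number, 2 members were called, Hmox1 and Slc40a1, both higher, against 7.24% of all genes higher, 10.6% lower and 17.8% in either direction.

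Slc40a1 had 96.5, 103 and 83.5 CPM in MRC1+ TAMs, against 34.5, 70.5 and 54.1 CPM in CD11c+ TAMs. Every MRC1+ library lay above every CD11c+ library, and the first CD11c+ library was the lowest. This was a log2 fold change of 0.83 ± 0.23 (SE), a 1.78-fold difference, with an adjusted p = 0.0414 in edgeR's quasi-likelihood test. The call was lost without any 1 of the 3 MRC1+ libraries (adjusted p in edgeR = 0.0975, 0.128 and 0.0759 without the first, the second and the third), without the third CD11c+ library (0.0827), and when all 12 libraries shared the spread (0.469). It was kept under 9 of 14 other settings, with the log2 fold change over all 14 between 0.59 and 1.10. In such bulk samples, fewer cells of a type and less RNA per cell cannot be told apart.

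Slc11a1 had 165, 151 and 158 CPM in MRC1+ TAMs, against 178, 235 and 255 CPM in CD11c+ TAMs. All MRC1+ libraries lay under all CD11c+ libraries, though the first CD11c+ library came close. They differed by a log2 fold change of -0.49 ± 0.13 (SE), with an adjusted p = 0.0419 in edgeR's quasi-likelihood test. With the replicate number as a block it was -0.47 with an adjusted p = 0.0518 in edgeR, and the call held under 6 of 14 other settings, with adjusted p between 0.00127 and 0.134. C57BL/6 mice are known to carry a Slc11a1 allele whose protein does not function, so the counts describe transcript only.

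Markers of several cell types moved with this comparison. Of the dendritic cell markers, all 7 of the 7 listed markers were lower in MRC1+ TAMs, with summed levels of 20.5 to 21.4 CPM in MRC1+ and 203 to 404 CPM in CD11c+ TAMs, and none was at 0. Macrophage markers had 2 of 7 higher, with summed levels of 7104 to 9189 CPM in MRC1+ and 6833 to 9776 CPM in CD11c+ TAMs. Of these 2, 1 was Adgre1 (log2 fold change 0.80 ± 0.14, adjusted p = 0.00733 in edgeR's test). Endothelial markers had 2 of 5 higher and 2 lower (34.3 to 46.0 CPM in MRC1+ and 81.2 to 121 CPM in CD11c+ TAMs), and carcinoma markers 3 of 5 higher and 2 lower (143 to 208 CPM in MRC1+ and 118 to 169.7 CPM in CD11c+ TAMs). T and NK cell markers had 2 of 5 tested lower (63.3 to 127 CPM in MRC1+ and 24.7 to 103 CPM in CD11c+ TAMs) and neutrophil markers 1 of 4 (54.0 to 71.8 CPM in MRC1+ and 49.3 to 110.3 CPM in CD11c+ TAMs). None of the 7 fibroblast markers passed (0 of 7 in edgeR's test), at 590.1 to 828 CPM in MRC1+ and 258 to 1139 CPM in CD11c+ TAMs. The part of these cells in the member values was not tested.

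Of the enzymes that open haem, Hmox1 had 629.6, 530.3 and 743 CPM in MRC1+ TAMs, against 359, 418 and 588 CPM in CD11c+ TAMs. The groups overlapped, because the third CD11c+ library lay above the second MRC1+ library, while within each replicate number the MRC1+ library was higher. Its log2 fold change was 0.48 ± 0.20 (SE) with an adjusted p = 0.128 in edgeR's test, and 0.50 ± 0.12 with an adjusted p = 0.0376 when the replicate number was a block. Over 14 other settings its adjusted p in edgeR or DESeq2 ran from 0.0261 to 0.349, and 4 of them called it.

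Blvra, the main adult biliverdin reductase, had 99.5, 90.5 and 90.0 CPM in MRC1+ TAMs, against 66.9, 84.9 and 79.8 CPM in CD11c+ TAMs. Blvrb, which also reduces flavins, had 63.1, 62.2 and 62.7 CPM in MRC1+ TAMs, against 44.1, 57.9 and 61.6 CPM in CD11c+ TAMs. Neither gene overlapped between the groups and neither passed, with log2 fold changes of 0.28 ± 0.11 and 0.21 ± 0.13 (SE) and adjusted p = 0.113 and 0.288 in edgeR's test. For Blvrb the highest CD11c+ library came close to the lowest MRC1+ library, and without the first CD11c+ library its log2 fold change was 0.07.

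Slc48a1, which carries haem out of the phagolysosome, had 57.9, 59.6 and 74.2 CPM in MRC1+ TAMs, against 49.6, 51.7 and 54.8 CPM in CD11c+ TAMs. Slc11a2, which moves iron out of endosomes, had 62.7, 66.6 and 74.4 CPM in MRC1+ TAMs, against 48.7, 60.0 and 62.4 CPM in CD11c+ TAMs. For both genes the groups lay close together without overlapping. Log2 fold changes were 0.30 ± 0.11 for Slc48a1 and 0.26 ± 0.12 for Slc11a2 (SE), with adjusted p = 0.106 and 0.168 in edgeR's test.

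Tfrc had 224, 290.0 and 290.1 CPM in MRC1+ TAMs, against 221, 146 and 212 CPM in CD11c+ TAMs. The groups did not overlap, but the first libraries of both lay close together. The difference was 0.48 ± 0.17 on the log2 scale (SE) with an adjusted p = 0.0956 in edgeR's test, and 4 of 14 other settings called it.

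The ferritin heavy chain gene Fth1, whose product oxidises iron for storage, had 574, 554 and 650.3 CPM in MRC1+ TAMs, against 637, 711 and 942 CPM in CD11c+ TAMs. The groups overlapped only by the third MRC1+ library, which lay above the first CD11c+ library. It had a log2 fold change of -0.36 ± 0.15 (SE) with an adjusted p = 0.141 in edgeR's test. Without the third CD11c+ library this was -0.17, and without the first it was -0.48 and called (adjusted p = 0.0314 in edgeR). The light chain gene Ftl1 had 177, 149 and 174 CPM in MRC1+ TAMs, against 135, 169.6 and 209 CPM in CD11c+ TAMs, with a log2 fold change of -0.03 ± 0.16 (SE) and an adjusted p = 0.907 in edgeR's test. Its sign turned with upper-quartile scaling (0.02) and with library size only (0.10), so no direction is given. Ftl1 has a near-identical copy, Ftl1-ps1, with 1548 to 9283 reads per library, so its count and that of Fth1, which also has copies, are uncertain. With Ftl1 and Ftl1-ps1 summed, chosen after seeing the data, the log2 fold change was -0.06.

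Counted without a test, 6 members had all MRC1+ libraries above all CD11c+ libraries and 1 had them all beneath, against 18.5% and 19.9% of all tested genes, or 7 of 10 against 38.4% in either direction. The median log2 fold change of the 10 members was 0.27, against 0.01 over all genes, with 7 of 10 above 0. With library size only, which moved the median of all genes to 0.14, 6 members were called, all higher (Hmox1, Slc40a1, Slc48a1, Slc11a2, Blvra and Tfrc), and calls over all genes split into 1636 higher and 1110 lower, against 1080 and 1517 with TMM scaling. The first CD11c+ library held the lowest CD11c+ value of 9 of 10 members, all but Tfrc, against 43.5% of the 9609 genes with a mean of at least 10 CPM, a count chosen after the values were seen.

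Erythroid markers overlapped between these groups. Of 9 listed markers found in the files, 7 were tested and 0 passed edgeR's test. Their summed levels were 701, 271 and 317 CPM in MRC1+ TAMs and 515, 297 and 473 CPM in CD11c+ TAMs, with the highest value of either group in its first library. Their part in the member values was not tested.

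**Figure D2:**
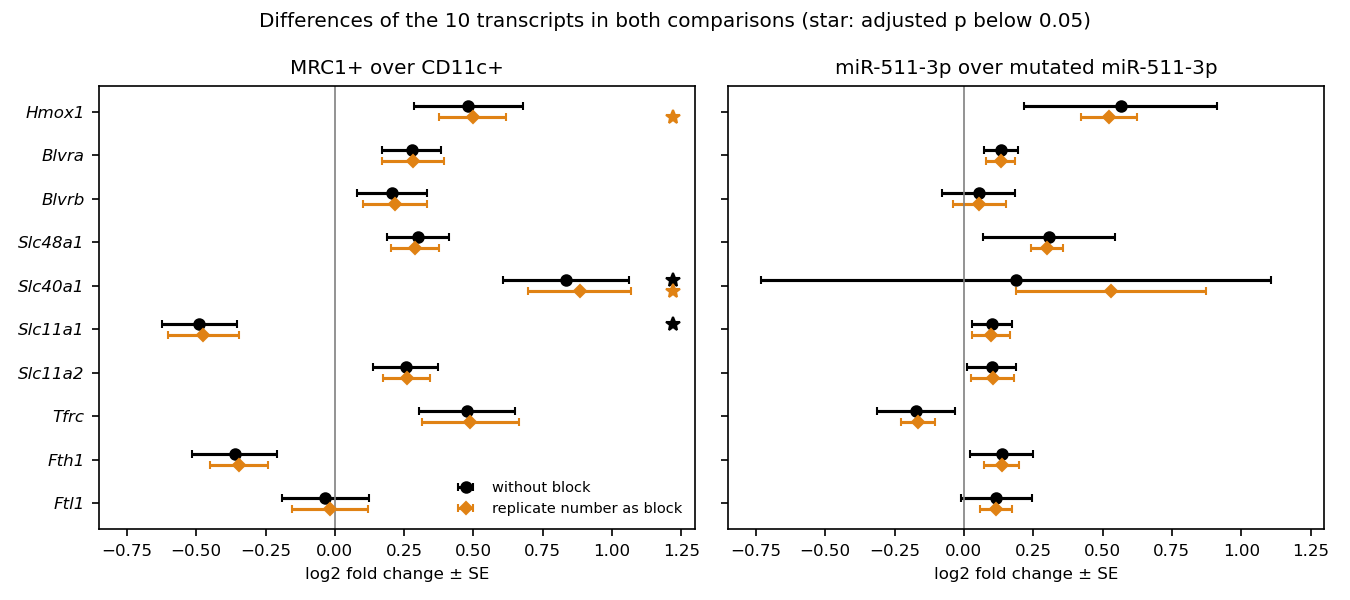
Log2 fold change of each member, MRC1+ over CD11c+ TAMs and miR-511-3p over mutated miR-511-3p TAMs, with standard errors as bars and 0 marked. Slc40a1 (0.83) and Slc11a1 (-0.49) passed in the first comparison, and no member passed in the second, where Slc40a1 had the widest error (0.92).

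Ratios of counts within a library do not depend on scaling, and 4 were compared in each comparison. The ratio of Slc11a1 to Slc11a2 was 2.64, 2.27 and 2.13 in MRC1+ TAMs, against 3.65, 3.91 and 4.08 in CD11c+ TAMs. The ratio of Fth1 to Ftl1 was 3.24, 3.71 and 3.73 in MRC1+ TAMs, against 4.71, 4.19 and 4.50 in CD11c+ TAMs. Neither ratio overlapped between the groups. The Fth1 to Ftl1 ratio rests on the 2 counts that gene copies make uncertain, and it was not computed with Ftl1-ps1 added. The differences in mean log2 ratio were -0.73 and -0.33, each with an exact two-sided permutation p = 0.1, the smallest that 3 against 3 libraries allow, and 0.2 after adjustment over the 4 ratios.

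The ratio of Slc40a1 to Tfrc, export over uptake, was 0.432, 0.355 and 0.288 in MRC1+ TAMs, against 0.157, 0.483 and 0.256 in CD11c+ TAMs. The groups overlapped, and the exact permutation p was 0.5. Blvrb to Blvra differed by -0.06 on the log2 scale with an exact permutation p = 0.6.

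Genes around the route were counted from lists of pathway members, to be read against the 6.91% of all tested genes that were higher, 9.71% lower and 16.6% in either direction. Each list holds few genes, and no test over a list was run. In haem and haemoglobin uptake, 2 of 4 tested genes were higher and 1 lower in MRC1+ TAMs. Cd163, the scavenger receptor for haemoglobin bound to haptoglobin, had 160.4, 204 and 215 CPM in MRC1+ TAMs, against 8.65, 10.3 and 8.87 CPM in CD11c+ TAMs, with a log2 fold change of 4.38 ± 0.15 and an adjusted p = 1.09e-05 in edgeR's test. Slc46a1, a folate transporter first described as a haem carrier, was higher by 0.86 ± 0.16 (adjusted p = 0.00826 in edgeR), at 8.61, 7.42 and 7.51 CPM in MRC1+ and 3.93, 4.39 and 4.73 CPM in CD11c+ TAMs. Hp, haptoglobin itself, was lower by a log2 fold change of -1.85 ± 0.39 (adjusted p = 0.0161 in edgeR), a call lost without the first or the second MRC1+ library.

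In iron transport and reduction, 2 of 11 tested genes were higher and 0 lower. Slc39a8, a zinc, manganese and iron importer, had 10.9, 9.997 and 12.3 CPM in MRC1+ TAMs, against 1.85, 2.74 and 2.07 CPM in CD11c+ TAMs. Its log2 fold change was 2.31 ± 0.19 with an adjusted p = 0.000243 in edgeR's test. Steap3, the endosomal reductase that prepares iron for transport, had 22.2, 24.5 and 26.0 CPM in MRC1+ TAMs, against 16.1, 15.7 and 15.8 CPM in CD11c+ TAMs (0.62 ± 0.10, adjusted p = 0.00518 in edgeR). The median of the list was 0.62, with 9 of 11 genes above 0.

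In iron sensing and ferritin handling, 0 of 6 were higher and 1 lower. Fbxl5, which targets iron regulatory proteins for breakdown when iron is plentiful, had 392, 334 and 334 CPM in MRC1+ TAMs, against 562, 613 and 619 CPM in CD11c+ TAMs (-0.76 ± 0.10, adjusted p = 0.00211 in edgeR). The iron regulatory protein genes Aco1 and Ireb2 had log2 fold changes of -0.07 ± 0.09 and -0.03 ± 0.07 and did not pass (adjusted p = 0.632 and 0.831 in edgeR). Ncoa4, the receptor that delivers ferritin for degradation, stood at 0.04 ± 0.10 and did not pass either (adjusted p = 0.807 in edgeR).

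In haem synthesis, 0 of 11 were higher and 2 lower. Alas1, the rate-limiting enzyme, had 56.9, 72.1 and 63.9 CPM in MRC1+ TAMs, against 77.8, 111 and 95.4 CPM in CD11c+ TAMs (-0.56 ± 0.14, adjusted p = 0.0340 in edgeR). The mitochondrial glycine carrier Slc25a38 was lower by a log2 fold change of -0.66 ± 0.17 (adjusted p = 0.0323 in edgeR), but not with the replicate block (adjusted p = 0.0504), which called Alad, the second enzyme of the route, higher (0.67, adjusted p = 0.0341). Each of the calls for Alas1 and Slc25a38 was lost without the third MRC1+ or the second or the third CD11c+ library, for Alas1 also without the first and for Slc25a38 without the second MRC1+ library. The Alas1 call was also lost with library size only (adjusted p = 0.0799 in edgeR).

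Other haem export and breakdown had 1 of 5 tested genes higher and 0 lower, the porphyrin transporter gene Abcb6 (0.55 ± 0.12, adjusted p = 0.021 in edgeR), a call lost without any 1 MRC1+ library or the second CD11c+ library. Hmox2, the constitutive haem oxygenase, stood at -0.09 ± 0.08 and Flvcr1, a haem exporter, at 0.00 ± 0.10, and neither passed (adjusted p = 0.470 and 0.996 in edgeR). In mitochondrial iron and iron-sulfur clusters, 0 of 11 were higher and 1 lower, the cluster scaffold Iscu (-0.72 ± 0.15, adjusted p = 0.0149 in edgeR), and with the replicate block the mitochondrial iron importer Slc25a37 was also called higher (0.39, adjusted p = 0.0478). The Iscu call was lost without the second or the third MRC1+ library.

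Among regulators of haem and iron genes, 0 of 9 were higher and 1 lower. Nfe2l2, which encodes NRF2, an activator of Hmox1 and ferritin genes, had 223, 238 and 252 CPM in MRC1+ TAMs, against 307.3, 358 and 434 CPM in CD11c+ TAMs (-0.62 ± 0.13, adjusted p = 0.0162 in edgeR), a call lost without the first or the second MRC1+ library. Bach1, a haem-sensing repressor of Hmox1, stood at -0.19 ± 0.12, and Spic, a regulator of red pulp macrophages, at -0.37 ± 0.26, and neither passed (adjusted p = 0.293 and 0.353 in edgeR). With the replicate block Maff was also called lower (-0.54, adjusted p = 0.0214).

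Other NRF2 targets moved both ways, with 2 of 12 higher and 4 lower. Gclm, a subunit of the enzyme that starts glutathione synthesis, was higher (0.45 ± 0.10, adjusted p = 0.0186 in edgeR), as was the quinone reductase gene Nqo1 (0.84 ± 0.21, adjusted p = 0.0274). The cystine importer Slc7a11 had 118, 104 and 157 CPM in MRC1+ TAMs, against 368, 466 and 692 CPM in CD11c+ TAMs (-2.01 ± 0.25, adjusted p = 0.00134 in edgeR). Gsr, glutathione reductase, was lower by a log2 fold change of -0.87 ± 0.11, Taldo1 by -0.71 ± 0.17 and G6pdx by -0.40 ± 0.09, the last with adjusted p = 0.0192 in edgeR. Without 1 library the calls were lost for Nqo1 (any but the first CD11c+), Gclm (the third MRC1+ or the second CD11c+), Taldo1 (the second or the third MRC1+) and G6pdx (these or the second CD11c+). With library size only G6pdx had an adjusted p = 0.0797, and in the fit of all 12 libraries Gclm had an adjusted p = 0.202, both in edgeR. With the replicate block, Txnrd1 was also called lower (-0.36, adjusted p = 0.0478).

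**Figure D3:**
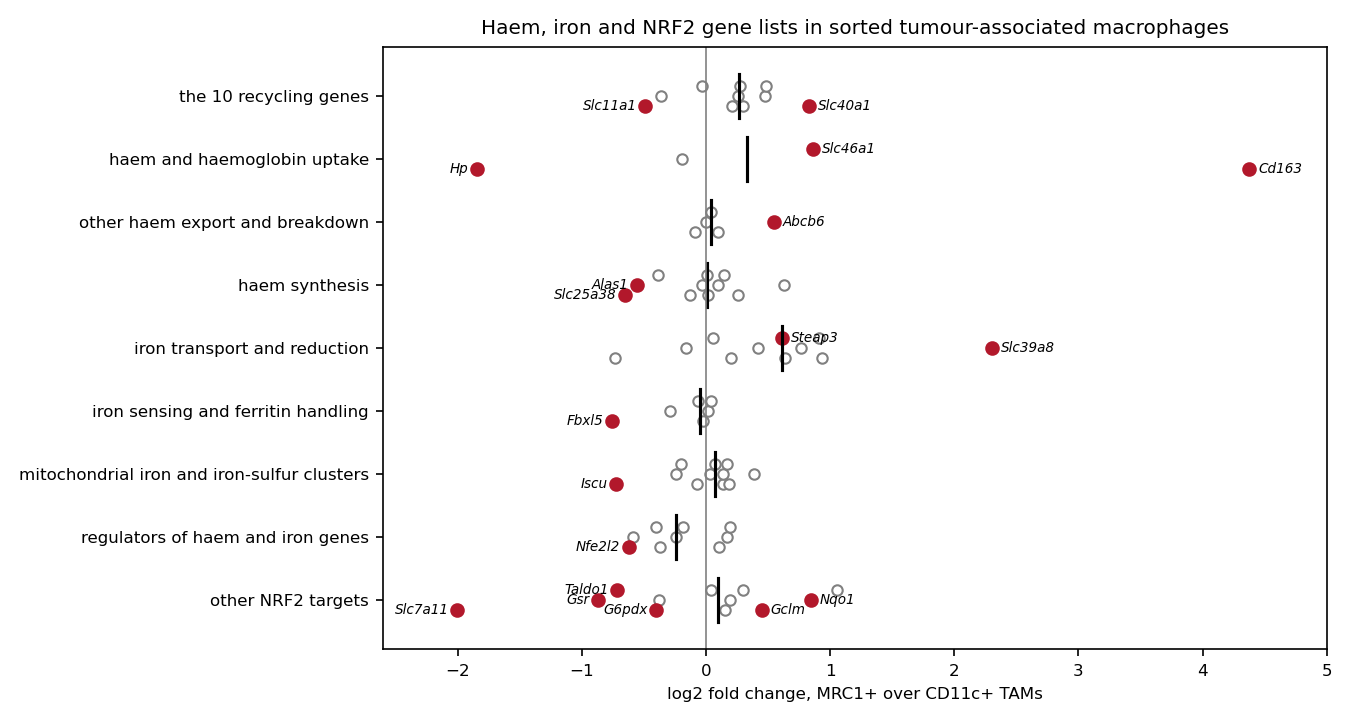
Log2 fold change of every tested gene of the pathway lists, MRC1+ over CD11c+ TAMs, 1 row per list, with a black bar at the median and genes that passed edgeR's test filled and named. Cd163 (4.38) and Slc39a8 (2.31) lie farthest to the right, Slc7a11 (-2.01) and Hp (-1.85) farthest to the left.

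The second comparison asked what miR-511-3p changes against its mutated form. No member passed edgeR's quasi-likelihood test (0 of 10), and neither did any gene, 0 of 14054 tested or 0%. At an unadjusted p under 0.05 there were 343 genes, and DESeq2 called 1, Mir511 itself. With the replicate block edgeR called 1 gene, Hspg2, which was lower (0.00712% of genes), and no member. Blvra was the 1 member with all miR-511-3p libraries above all mutated ones, against 2.41% of genes above, 3.83% beneath and 6.24% in either direction. The median log2 fold change was 0.13, against 0.00 over all genes, with 9 of 10 members above 0. In every number the miR-511-3p library was higher for 5 members and lower for 1, which was not counted over all genes.

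Blvra had 118, 118 and 109 CPM in miR-511-3p TAMs, against 108, 107 and 101 CPM in mutated miR-511-3p TAMs. The third miR-511-3p library lay just above the first mutated library. The difference was 0.13 ± 0.06 on the log2 scale (SE), with an adjusted p = 1 in edgeR's test.

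Hmox1 had 1629, 1459 and 703 CPM in miR-511-3p TAMs, against 971, 1057 and 556 CPM in mutated miR-511-3p TAMs. The groups overlapped, with the third library the lowest of each, and within each number the miR-511-3p library was higher, by 0.75, 0.47 and 0.34 on the log2 scale. Between the groups it was 0.56 ± 0.35 on the log2 scale (SE) with an adjusted p = 1 in edgeR's test. With the replicate number as a block it was 0.52 ± 0.10, with an adjusted p = 0.258 in edgeR.

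Slc48a1 followed the same order over the libraries, with 203, 183 and 120.3 CPM in miR-511-3p TAMs, against 156, 157 and 99.0 CPM in mutated miR-511-3p TAMs. It was higher in the miR-511-3p library of each number, by 0.38, 0.22 and 0.28 on the log2 scale. Its log2 fold change was 0.31 ± 0.24 (SE) with an adjusted p = 1 in edgeR's test, and 0.30 ± 0.06 with an adjusted p = 0.258 in edgeR when the replicate number was a block.

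Slc40a1 had 222, 108 and 40.4 CPM in miR-511-3p TAMs, against 206, 111 and 11.8 CPM in mutated miR-511-3p TAMs. The first libraries of the groups were alike, as were the second, and in the third libraries both were lowest and the miR-511-3p library was the higher. The log2 fold change was 0.19 ± 0.92 (SE) with an adjusted p = 1 in edgeR's test. Without both libraries numbered 3, an alternative added after seeing the data, it was 0.08 ± 0.43, and leaving out 1 library at a time gave -0.55 to 1.02, so its sign rested on single libraries.

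Fth1 had 2588, 2442 and 2108 CPM in miR-511-3p TAMs, against 2349.6, 2268 and 1909.7 CPM in mutated miR-511-3p TAMs. Ftl1 had 649, 672 and 529 CPM in miR-511-3p TAMs, against 627, 600.4 and 487 CPM in mutated miR-511-3p TAMs. Both ferritin genes overlapped between the groups and were lowest in the third libraries. Log2 fold changes were 0.14 ± 0.11 and 0.12 ± 0.13 (SE), with an adjusted p = 1 for each in edgeR's test.

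Tfrc had 103, 128 and 126 CPM in miR-511-3p TAMs, against 108, 148 and 148 CPM in mutated miR-511-3p TAMs, the only member with a negative value (-0.17 ± 0.14, adjusted p = 1 in edgeR). Slc11a1, Slc11a2 and Blvrb had log2 fold changes of 0.10 ± 0.07, 0.10 ± 0.09 and 0.05 ± 0.13 (SE). All of them overlapped between the groups. Slc11a1 spanned 538 to 605 CPM in miR-511-3p and 509.7 to 544 CPM in mutated TAMs. Slc11a2 spanned 93.0 to 104 CPM in miR-511-3p and 85.6 to 104 CPM in mutated TAMs, and Blvrb 93.0 to 118 CPM in miR-511-3p and 85.7 to 117 CPM in mutated TAMs.

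The ratio of Slc40a1 to Tfrc was 2.16, 0.845 and 0.320 in miR-511-3p TAMs, against 1.90, 0.752 and 0.0798 in mutated miR-511-3p TAMs. It was higher in the miR-511-3p library of 3 of 3 numbers, yet the groups overlapped almost wholly (exact permutation p = 0.6, and 0.25, the smallest possible, over the 3 pairs). The other 3 ratios had exact permutation p between 0.7 and 1.

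**Figure D4:**
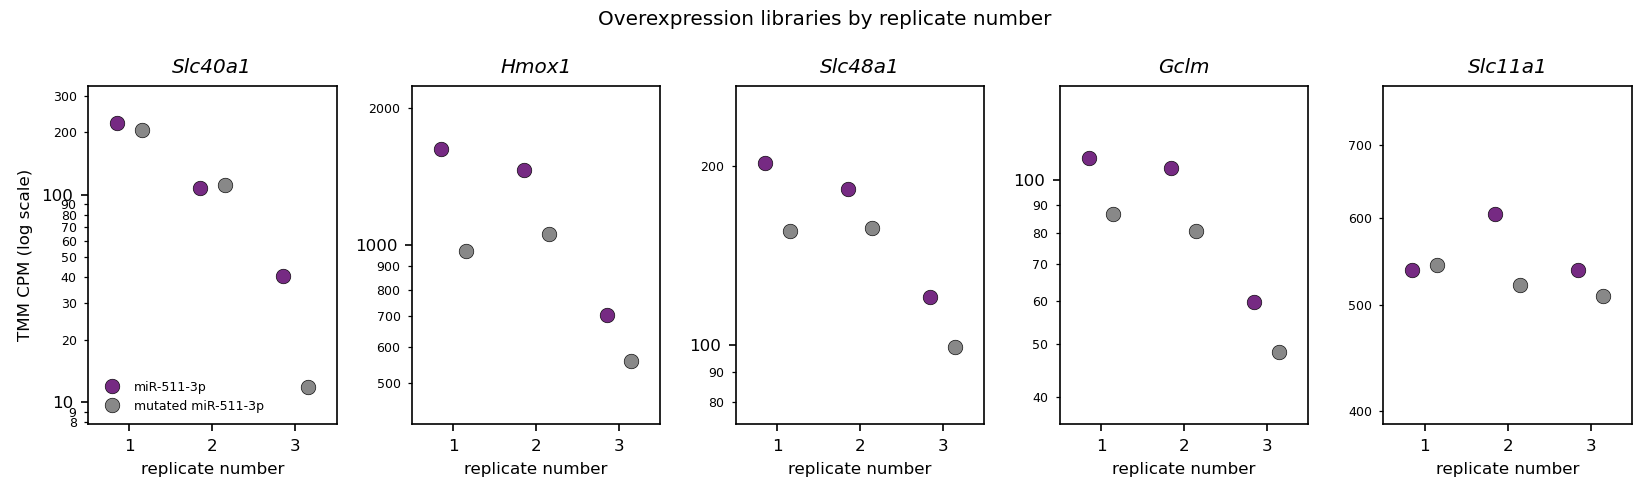
TMM CPM, on log axes, of Slc40a1, Hmox1, Slc48a1 and Slc11a1 and of the pathway gene Gclm in each miR-511-3p and mutated miR-511-3p library, by replicate number, 1 point per library. Hmox1, Slc48a1 and Gclm were higher in the miR-511-3p library of every number. The libraries numbered 3 held the lowest Hmox1, Slc40a1, Slc48a1 and Gclm values of both groups.

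The overexpression libraries also varied within a group. Highest over lowest library for Slc40a1 was 5.50 in miR-511-3p and 17.5 in mutated miR-511-3p TAMs, where the median gene stood at 1.12 and 1.15. Of 9609 genes with a mean of at least 10 CPM, it ranked 36th and 20th by this ratio. It was 1.23 in MRC1+ and 2.04 in CD11c+ TAMs.

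For Hmox1 the same ratio was 2.32 in miR-511-3p and 1.90 in mutated miR-511-3p TAMs. The libraries numbered 3 were the lowest of both groups for 7 of 10 members (Hmox1, Slc40a1, Slc48a1, Blvra, Blvrb, Fth1 and Ftl1), against 18.2% of the same genes, a count chosen after the values were seen. Fibroblast markers stood highest in those libraries, with summed levels of 86.2, 86.5 and 267 CPM in miR-511-3p and 179, 166 and 658 CPM in mutated miR-511-3p TAMs. Erythroid markers summed to 8.90, 4.15 and 34.1 CPM in miR-511-3p and 20.4, 8.82 and 46.1 CPM in mutated miR-511-3p TAMs. Macrophage markers summed to 9194 to 10715 CPM in miR-511-3p and 9018 to 11639 CPM in mutated miR-511-3p TAMs. None of the 7 fibroblast and 5 erythroid markers tested passed between the groups (0 of each in edgeR's test), and the part of these cells in the member values was not tested.

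No pathway list had a gene that passed in this comparison. Of the listed genes, Slc25a28, a mitochondrial iron importer, had the lowest unadjusted p, with a log2 fold change of 0.22 (unadjusted p = 0.0384 in edgeR, adjusted p = 1). Gclm had 109.7, 105 and 59.9 CPM in miR-511-3p TAMs, against 86.6, 80.6 and 48.4 CPM in mutated miR-511-3p TAMs, and was, like Hmox1, lowest in the third library of each.

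Across the 12 libraries the genes whose pattern lay nearest to Hmox1, by root mean square difference of log2 CPM centred on each gene's mean, were Gclm (0.182), Rnf128 (0.256), Pdpn (0.263), Ctsd (0.272) and Vat1 (0.286) of 9608 genes compared. The spread of Hmox1 itself was 0.645 (SD of log2 CPM). For Slc40a1 they were Erbb3 (0.690), ENSMUSG00000082401 (0.815), Ppbp (0.817), Akr1b8 (0.832) and Nxpe5 (0.834), against its own spread of 1.10. These distances mix differences between groups, sorts and depths and carry no test.

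Compared per length, in CPM per kilobase of annotated exon, Hmox1, Fth1 and Ftl1 had the highest mean levels in each of the 4 groups. In MRC1+ TAMs Hmox1 stood at 362 ± 60.7, Fth1 at 171 ± 14.6 and Ftl1 at 125 ± 11.5, against 260.0 ± 67.8, 220.0 ± 45.8 and 128 ± 27.6 in CD11c+ TAMs (SD, n = 3 each). In miR-511-3p TAMs they stood at 722 ± 282, 686 ± 70.9 and 460.0 ± 57.1, against 492 ± 153, 627 ± 67.5 and 426 ± 55.5 in mutated miR-511-3p TAMs. Hmox1 and Fth1 lay within their spread of each other in the CD11c+ and both overexpression groups. The annotated lengths were 3.469 kilobases for Fth1 and 1.751 kilobases for Hmox1. Before division by length, Hmox1 averaged 634 CPM and Fth1 593 CPM in MRC1+ TAMs, so their gap there rests largely on the lengths used.

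At the low end, Slc40a1 stood at 10.5 ± 1.11 CPM per kilobase in MRC1+ and 5.90 ± 2.003 in CD11c+ TAMs, beside Slc11a2 at 10.7 ± 0.943 and 8.97 ± 1.15. Tfrc stood at 43.3 ± 6.20 in MRC1+ and 31.2 ± 6.59 in CD11c+ TAMs, and at 19.3 ± 2.26 in miR-511-3p and 21.8 ± 3.69 in mutated miR-511-3p TAMs. The exon lengths join all annotated transcripts, including retained introns, which lowers the value of genes such as Slc40a1 (9 kilobases). Sorted and overexpression groups were not compared by a test.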

How the data were processed

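Whole-number read counts per Ensembl gene, not normalized, were deposited as a table for each library. Per the submitters' processing notes, the tools were TopHat 1.2.0, Bowtie, HTSeq and SAMtools 0.1.12a and the build mm9 (NCBIM37), and the labels' protocols name an Illumina TruSeq RNA kit. The sources used here do not say whether counting used strand, so reads of a gene and of an antisense or overlapping partner cannot be separated. The 5 summary entries entered neither library sizes nor tests. Of these, reads outside genes made up 19.7% to 26.6% of sorted and 7.64% to 10.4% of overexpression libraries, and reads with several alignments, which were not counted, 12.8% to 20.1%. Symbols came from GENCODE M21, which named 31819 of 36439 identifiers. UTR sequences and exon lengths are those of GRCm38, not of the build behind the counts.

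Each comparison used edgeR 4.0.16 in R 4.3.3 on its 6 libraries (TMM, filterByExpr, glmQLFit and glmQLFTest, Benjamini-Hochberg at 0.05 over all tested genes). The SE is the absolute log2 fold change over the square root of F. The 14 other settings were DESeq2 1.42.0, 3 scalings, 2 filters, a fit of all 12 libraries, a replicate block and each of the 6 libraries left out. Ratios used a pseudocount of 0.5 reads and exact permutation tests. Named genes were the 10 members and the 5 nearest genes to Hmox1 and Slc40a1. Listed pathway genes were named if they passed in a comparison or were among the 4 of lowest p in their list. Mrc1, Itgax, Adgre1 and Mir511 were named as checks. Ireb2, Flvcr1, Bach1, Spic and Txnrd1 lie outside this rule and were named after their values were seen, as was Hspg2. The members and lists were chosen with earlier results of these data known.

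Libraries with the same replicate number were taken as possible pairs by a set rule. Their deviations from their group means had to correlate above 0.1 across genes. The main tests did not use these pairs. The pairs entered only the alternatives with a replicate block or with a number left out, and the comparisons within a number. Over the genes tested in each comparison the correlations were 0.104, 0.337 and 0.250 for the sorted groups. For the overexpression groups they were 0.147, 0.258 and 0.462. There, the first library with the unmutated form correlated more with the second mutated library (0.166) than with the first (0.147). The pairing of these first libraries is therefore uncertain. Over the same genes, every other library correlated most with the library of its own number. Over the genes kept in all 12 libraries, the set tried first, the first sorted pair gave 0.0997, under the limit, so the sorted pairing is borderline. No label states the pairing. Chi-square per degree of freedom between libraries of a group was 10.0 to 36.4, so none agreed within sampling noise. The edgeR step was tested on simulated counts with 200 changed genes.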

Additional observations from a re-analysis of the deposited data

How the results depend on the processing

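In MRC1+ against CD11c+ TAMs, 2597 genes and 2 members were called. The members called were 1 with upper-quartile scaling (17.1% of all genes), 6 with library size only (17.6%), 4 with no filter (11.9%) and 3 with DESeq2 (19%). Leaving out 1 library gave 1270 to 4707 genes and 0 to 4 members: 1270, 1279 and 1490 genes without the second MRC1+, the third MRC1+ and the second CD11c+ library, and 4707 without the first CD11c+ library. The replicate block gave 2788 genes and 2 members, Hmox1 and Slc40a1. Alternatives added after seeing the data moved these counts further. Leaving out both libraries numbered 1, 2 or 3 gave 4425, 646 and 950 genes and 3, 0 and 0 members. The block with library size only gave 5 members. The block without number 1, 2 or 3, with 1 residual degree of freedom, gave 7650, 1385 and 1016 genes and 8, 1 and 1 members. The cause was not tested.

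The log2 fold change of Ftl1 changed sign with upper-quartile scaling (0.020), library size only (0.10), the block with library size only (0.11), and without both libraries numbered 2 or 3 (0.035 and 0.10, with the block 0.068 and 0.10), and ranged from -0.18 to 0.14 with 1 library left out. The Blvrb to Blvra ratio ranged from -0.11 to 0.0037. The other members kept their sign under all of these. The calls of Slc46a1 and Steap3 were lost without both libraries numbered 2 or 3, with or without the block. That of Fbxl5 was lost without both numbered 2 when no block was used. With the block it was lost without both numbered 3 (adjusted p = 0.0517 in edgeR).

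Between the overexpression groups, 0 members were called under every alternative run. DESeq2, all 12 libraries, the replicate block and the block with library size only each called 1 gene, Mir511 in the first pair and Hspg2 in the second pair. With 1 library left out, Slc40a1 ranged from -0.55 to 1.02 and Blvrb from -0.049 to 0.17. Blvrb was also negative without both libraries numbered 2 (-0.061, and -0.047 with the block). Log2 ratio differences ranged from -0.52 to 1.77 for Slc40a1 to Tfrc, -0.0030 to 0.0639 for Fth1 to Ftl1, -0.16 to 0.021 for Blvrb to Blvra and -0.061 to 0.049 for Slc11a1 to Slc11a2.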
